A study of Mus musculus with 4 samples.

Results

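The cells described here are barcodes of a single-cell RNA sequencing experiment on mouse back skin epidermis. They are named for Fst, the gene for the secreted activin antagonist follistatin. Of the genes that chose them Fst gave the most counts in each library, though some cells had none of it. They were chosen by 4 genes that had been linked to the outer root sheath and inner bulge of the hair follicle. Fst was 1 of these genes. The others were Moxd1, a copper-dependent monooxygenase, Sostdc1, a secreted antagonist of BMP and Wnt signals, and Aldh3a1, an aldehyde dehydrogenase. A barcode entered with at least 4 UMIs (unique molecular identifiers, counts of single captured transcripts) summed over these 4 genes and at least 2 of the genes detected. It also needed fewer than 3 UMIs of the bulge genes Cd34, Krt24, Postn and Lgr5, fewer than 2 of the upper follicle keratin Krt79, and none of Ptprc, Col1a1 or Col3a1, which mark immune cells and fibroblasts. Every barcode further had at least 1500 gene UMIs (2000 at 1 week) and at most 15% mitochondrial UMIs. The rule found 3771 barcodes among 74761 that passed the depth and mitochondrial limits and 109216 that the 4 matrices list. At 1 day the control library held 1781 of them and the ablated library 1088, and at 1 week these numbers were 626 and 276.

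The study asked what follows in adult epidermis when ΔNp63, the p63 isoform of basal keratinocytes, is removed. All mice were DNp63fl/fl. The ablated groups also carried K14-CreT2, a Cre that tamoxifen switches on and that the K14 promoter drives in basal keratinocytes and outer root sheath cells. Controls had no Cre. All 4 groups received tamoxifen by gavage at 200 mg/kg daily for 5 days, so the drug does not separate them. Skin was taken 1 day or 1 week after treatment from males and females in equal number, aged 2 to 17 months, and the epidermis was released with 0.25% trypsin either at 4 °C overnight or at 37 °C. Which digestion, ages or sexes belong to which library, and how many animals each one pooled, is not given in the labels. Each group was a single library, so differences between groups stand without replicates and none was tested. Libraries came from a 3′ kit at 1 day and a 5′ kit at 1 week, so the 2 time points were kept apart throughout.

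The outer root sheath is the layer of the hair follicle that is continuous with the basal layer of the epidermis and holds, in its bulge, the stem cells that rebuild the hair. In resting follicles an inner bulge layer lies between these stem cells and the club hair and is known as a source of signals, among them BMP6 and FGF18, that keep them quiet. p63 is the transcription factor that maintains the basal state of stratified epithelia, where it supports keratin 5, keratin 14 and the adhesion proteins that hold basal cells to the basement membrane. Simple epithelial keratins such as keratin 8 and 18 are normally low in mature epidermis outside Merkel cells.

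The label was set beside markers that the rule did not use. Levels are given as UMIs of a gene per 1000000 gene UMIs summed over the cells (CPM). Timp3, a protease inhibitor listed for the inner bulge, was at 280 CPM in Fst-led control cells at 1 day, against 97.3 in bulge-gated cells and 136 in upper follicle-gated cells of the same library. Bulge-gated cells had at least 4 UMIs of the bulge genes and upper follicle-gated cells at least 4 of Krt79, each with few UMIs of the other gates' genes. The rule removed barcodes rich in those genes, so lower bulge or upper follicle markers can follow from the gates and are a description. At 1 week Timp3 was at 564 CPM, against 215 and 241. The other inner bulge markers went the opposite way. Fgf18 was at 1.07 and 0.469 CPM in control Fst-led cells at 1 day and 1 week, while bulge-gated cells had 27.3 and 59.1. Bmp6 was at 2.14 and 2.11 CPM, against 14.1 and 12.7 in bulge-gated cells. Krt75, a companion layer keratin, was at 1.69 and 1.88 CPM, against 4.55 and 5.46. In all, 4 of the 5 inner bulge and companion layer markers were lower than in bulge-gated cells in both controls, since Krt6a also stood at 384 against 716 CPM at 1 day and 152 against 535 at 1 week. The bulge markers were low as well. Lhx2, a bulge stem cell factor, was at 18.4 and 20.6 CPM, against 239 and 361 in bulge-gated cells. Krt15 stood at 2147 and 4469 CPM, against 8248 and 13960. Gata6, a factor of the upper follicle and its duct, was at 45.8 and 46.2 CPM, close to the 56.4 and 44.0 of upper follicle-gated cells and above the 9.54 and 5.46 of bulge-gated cells. Other upper follicle markers were far below the upper follicle-gated cells: Cst6, a cystatin, was at 394 and 170 CPM against 22310 and 14316, and Defb6, a beta-defensin, at 282 and 168 against 4628 and 3133. Krt17, a keratin of the outer root sheath and other follicle cells, was at 1481 and 2372 CPM, against 6307 and 7922 in upper follicle-gated cells and 916 and 1192 in bulge-gated cells. Basal keratins were high, with Krt14 at 5917 and 6960 CPM. Within this limit of the gates, these markers do not bear out an inner bulge identity, and the cells are called Fst-led cells here.

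**Figure D1:**
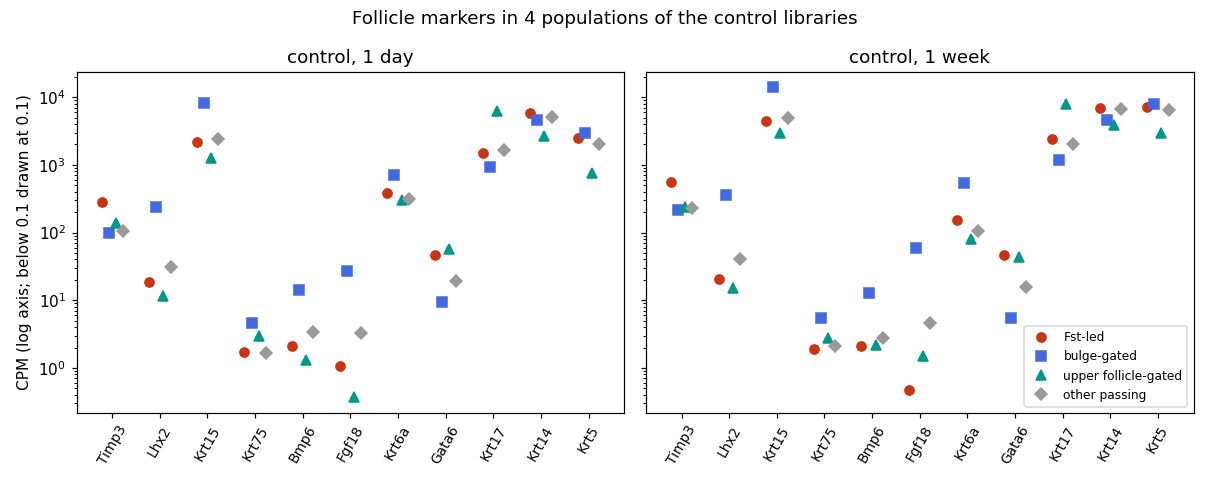
Level of 11 markers outside the rule (CPM, log axis) in the 2 control libraries for Fst-led cells, bulge-gated cells, upper follicle-gated cells and all other passing barcodes. Fgf18, Bmp6, Krt75, Lhx2 and Krt15 are lower in Fst-led than in bulge-gated cells at both times, while Timp3 is higher.

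Markers of most cell types outside the epithelium were low in these cells, while Langerhans, sebaceous gland and suprabasal markers stood higher. The rule asks for no UMI of Ptprc, Col1a1 or Col3a1, so low immune and fibroblast sums are partly set by it. The Merkel cell list, 6 genes whose cells normally carry Krt8, summed to between 0 and 0.523 CPM in the 4 libraries, with Atoh1, Krt20 and Sox2 at 0 in each. All 5 endothelial genes together reached 4.46 to 7.04 CPM, and the 5 smooth muscle genes 2.09 to 8.68. The 6 melanocyte genes summed to 15.5 to 26.7 CPM, and the 6 T cell genes to 27.5 to 77.9. Fibroblast genes summed to 24.9 to 32.4 CPM, dermal papilla genes to 15.1 to 30.03 with Sox2 and Prom1 at 0 in each library, and Schwann cell genes to 47.3 to 76.0 with Sox10 at 0. Adipocyte genes were at 0 to 17.6 CPM, with Adipoq and Plin1 at 0, and sebaceous gland genes at 173 to 277, with Awat1 at 0 in 3 of the 4 libraries. Langerhans cell and macrophage genes, 6 in number and all detected, summed to 241 to 452 CPM, with Cd74 among them. Spinous and granular genes were well above these: their 7 genes summed to 7312 and 6753 CPM in the control and ablated libraries at 1 day and to 2992 and 1506 at 1 week, against 10700 to 15573 in other passing barcodes of the 4 libraries. The anagen and inner root sheath list was at 12.6 and 43.9 CPM at 1 day and at 15.3 and 220 at 1 week. That last sum was carried by Tchh, the inner root sheath protein trichohyalin, which was at 6.33 CPM in control and 210 in ablated cells, while Krt28 and Krt35 were at 0 in the latter. The part of these markers in the results was not tested.

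The rule genes themselves are described and not tested. Fst gave 82.4%, 79.4%, 60.4% and 49.2% of the rule UMIs in the control and ablated libraries at 1 day and then at 1 week. The Fst level was 1878 and 1586 CPM at 1 day and 1317 and 650 at 1 week. Fst was detected in 96.0%, 95.7%, 83.9% and 85.5% of the cells. The median cell held 7, 5, 4 and 3 Fst UMIs, beside median rule sums of 9, 7, 10 and 10. Moxd1 stood at 121, 111, 189 and 136 CPM in the same order, Sostdc1 at 114, 106, 387 and 240, and Aldh3a1 at 167, 196, 288 and 295. Only Aldh3a1 was not lower in the ablated library at either time. In other passing barcodes Fst was at 460, 358, 257 and 364 CPM. Most cells were found by 2 of the 4 genes at 1 day (59.3% of control and 67.4% of ablated cells), and all 4 were detected in 7.30% and 4.23%. In the control library at 1 week all 4 were seen in 25.6%. The threshold cut a continuous range. At 1 day 254 control cells had a rule sum of exactly 4, and 312 barcodes with a sum of 3 lay just outside it. Those inside had 365 CPM of Sox9 and 200 of Timp3, those outside 290 and 148, and the 882 cells with a sum of 10 or more 633 and 326. At 1 week 36 ablated cells lay just inside and 45 just outside, with 77.0 and 82.7 CPM of Trp63, against 270 in the 140 cells with a sum of 10 or more.

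Libraries held 68191870 to 179736563 gene UMIs, and the Fst-led cells 2727978 to 11219932. Median UMIs per Fst-led cell were 4753 and 4154 in the control and ablated libraries at 1 day and 5348 and 6923 at 1 week, so the ablated cells were shallower at 1 day and deeper at 1 week. Because the rule counts UMIs, a deep barcode passes at a lower level of the 4 genes. Between the libraries of a time point 299 barcodes were shared at 1 day and 661 at 1 week, and none was Fst-led in both. Shallow immune barcodes of 500 to 3000 UMIs with many T cell or Langerhans transcripts served as a guide to free RNA. They also hold transcripts of their own, so they do not measure free RNA for genes that immune cells may express. Hpgds, for example, was at 429 CPM there and at 41.7 in Fst-led cells of the 1-day control. The lowest gene UMIs listed were 500 in both controls, 1368 in the ablated library at 1 day and 1059 at 1 week. The ablated background thus started at a higher depth. Of these shallow immune barcodes 1 of 680, 2 of 539, 0 of 195 and 0 of 84 met the 4-gene requirement. A count of 0 of 84 allows a share of up to 4.30% (exact Clopper-Pearson 95% limit). Immune barcodes closer in depth to the Fst-led cells, with 2 or more Ptprc UMIs and medians of 3862 to 5914 UMIs, met it far more often, in 48 of 348 (13.8%), 12 of 185 (6.49%), 31 of 261 (11.9%) and 17 of 127 (13.4%). Among all passing barcodes these shares were 16.0%, 9.26%, 19.9% and 25.2%, and the part of free RNA or doublets in meeting the requirement was not tested. The barcodes of highest doublet score, 0.8% of a library for each 1000 barcodes scored, held 31.5% and 29.0% of the Fst-led cells at 1 day and 19.3% and 10.1% at 1 week, against 24.4%, 25.5%, 19.9% and 14.7% of all barcodes scored.

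Fst-led cells made up a smaller share of the ablated library at both times. The share was 6.42% of 27727 passing barcodes in the control at 1 day (exact Clopper-Pearson 95% interval 6.14 to 6.72) and 3.55% of 30687 in the ablated library (3.34 to 3.76). At 1 week it was 6.20% of 10092 (5.74 to 6.69) and 4.41% of 6255 (3.92 to 4.95). These intervals, like every other one given here, cover counting error only. The difference was -2.88 percentage points at 1 day (-3.24 to -2.52) and -1.79 at 1 week (-2.49 to -1.08). When every barcode was first thinned to a fixed number of UMIs, Fst-led cells made up 2.73% of the control and 1.42% of the ablated barcodes at 1 day, while the 1-week values were 4.50% and 3.93%. The differences were then -1.31 and -0.57 points, and at 1 day both shares had fallen to a similar degree. Thinning lowered the counts of the excluding genes too, so it can let in barcodes that the rule removes at full counts. Ratios given with thinning before the rule use the full counts of the cells so found. Among barcodes of 3000 or more UMIs at 1 week the difference was -0.77. The 4-gene requirement alone, before the exclusions, was thus met less often in the ablated library at 1 day, but more often at 1 week, where the order turned. At 1 week the bulge genes removed 40.1% of these control barcodes and 52.2% of the ablated ones, and Krt79 removed 34.2% and 47.1%. The order of the libraries at 1 week thus depended on the exclusions. Fewer such cells and a lower level of the 4 genes per cell cannot be told apart.

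Trp63, the targeted gene, was lower in the Fst-led cells of both ablated libraries. Counts are per gene, so the ΔN isoforms cannot be separated from others. At 1 day it stood at 527 CPM in control cells and 208 in ablated cells (exact Poisson 95% intervals 513 to 540 and 196 to 220). At 1 week it was 521 and 220 CPM (500 to 543 and 203 to 238). The log2 ratio of ablated over control was -1.34 (-1.43 to -1.25, exact conditional binomial) at 1 day and -1.25 (-1.38 to -1.11) at 1 week. No Trp63 UMI was found in 16.3% of control and 50.1% of ablated cells at 1 day, and in 13.6% and 34.1% at 1 week. The median cell stood at 444 and 0 CPM at 1 day and at 415 and 178 at 1 week. Shallow immune barcodes had 48.9, 46.3, 2.66 and 79.2 CPM of Trp63 in the 4 libraries in the same order, which is the background beside which the 208 and 220 CPM of the ablated cells stand. The 1-week value moved closest to 0 under 2 alternatives: it was -0.63 with thinning before the rule and -0.67 (-0.84 to -0.51) without cells holding 2 or more UMIs of 15 G2/M transcripts. Both alternatives also change which cells are counted. The 1-day value was -1.07 with thinning. Bulge-gated cells had ratios of -1.17 and -0.93 for Trp63 at the 2 times, and upper follicle-gated cells -1.50 and -1.65.

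**Figure D2:**
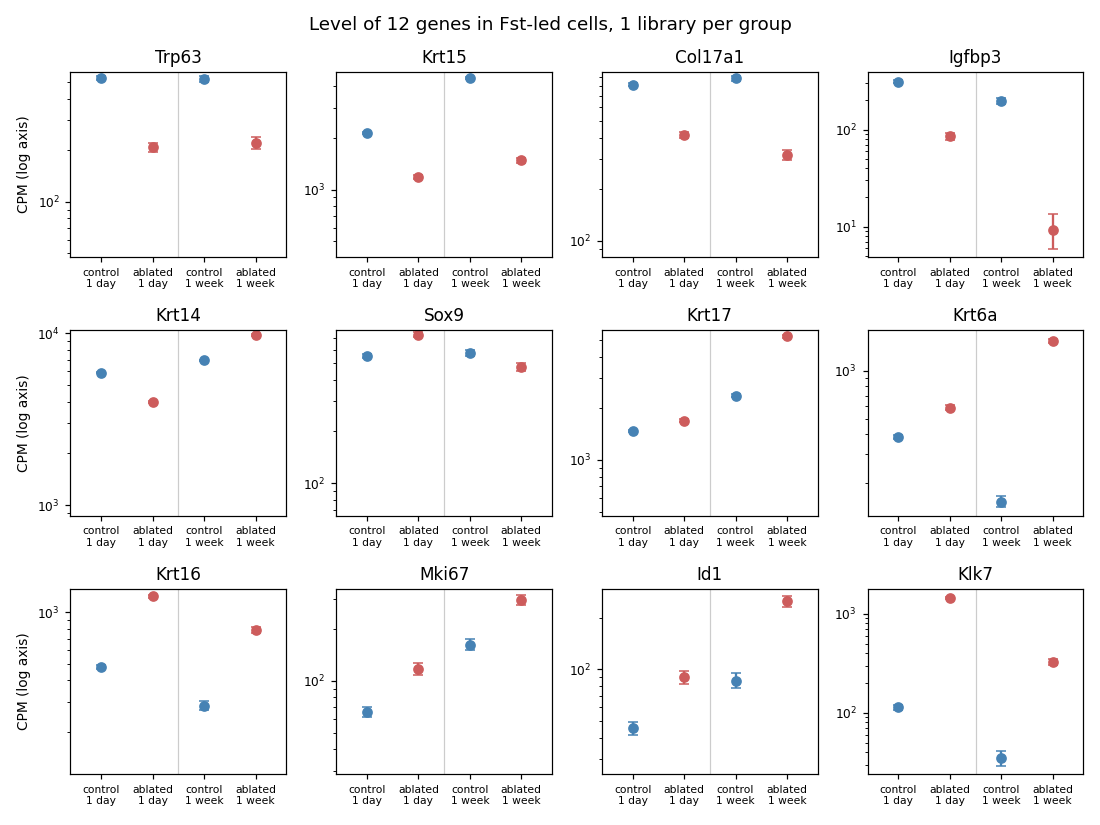
Level of 12 genes (CPM, log axis) in the Fst-led cells of each of the 4 libraries, with exact Poisson 95% intervals as bars. Trp63, Krt15, Col17a1 and Igfbp3 are lower, and Krt6a, Krt16, Mki67, Id1 and Klk7 higher, in the ablated library at both times.

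Among all genes with at least 50 UMIs over both libraries of a time point, 9768 at 1 day, 273 were at least 2-fold higher in the ablated Fst-led cells (2.79%) and 115 at least 2-fold lower (1.18%). At 1 week 485 of 8884 were higher (5.46%) and 301 lower (3.39%). The median log2 ratio over all of them was 0.02 at 1 day and 0.06 at 1 week. The gene lists below are read against these percentages. Leaving out the cells with G2/M transcripts reduced the 1-week counts to 168 and 162.

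Krt8 had the largest ratio at 1 day and stood high at both times, and Igfbp3, which binds insulin-like growth factors, was among the lowest at both. Their promoter stretches, taken from RefSeq on build GRCm38.p6, are shown because both genes were far from 0 in the same direction at both times, as was Nppb, which encodes the natriuretic peptide precursor B. Capitals mark CpG dinucleotides, and only bases ahead of both the RefSeq and the GENCODE gene start are printed, 5′ to 3′ on the gene's strand. Krt8 lies at chr15:101996698-102004482, Nppb at chr4:147985788-147987205 and Igfbp3 at chr11:7206086-7213923.
Krt8, chr15:102004483-102004592, minus strand: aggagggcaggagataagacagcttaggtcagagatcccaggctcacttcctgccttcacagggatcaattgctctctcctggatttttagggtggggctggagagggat
Nppb, chr4:147985650-147985787, plus strand: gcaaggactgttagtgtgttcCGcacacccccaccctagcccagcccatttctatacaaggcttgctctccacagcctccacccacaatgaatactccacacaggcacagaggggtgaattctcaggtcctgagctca
Igfbp3, chr11:7213924-7214173, minus strand: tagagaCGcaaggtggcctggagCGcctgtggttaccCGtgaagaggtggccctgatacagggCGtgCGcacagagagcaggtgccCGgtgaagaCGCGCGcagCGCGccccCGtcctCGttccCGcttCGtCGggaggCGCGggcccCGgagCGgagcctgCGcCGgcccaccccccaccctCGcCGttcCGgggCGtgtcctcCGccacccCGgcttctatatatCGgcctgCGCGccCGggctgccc
In the full 250 bases ahead of the RefSeq start, Krt8 holds 3 CpG, Nppb 5 and Igfbp3 32, against a median of 6 over 32851 mouse promoters. The letters TGANTCA (AP-1) occur in 6.75% of those promoters and CATGNNNNNNCATG (p53 family) in 0.490%, on either strand, and neither occurs in these 3 windows.

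The simple epithelial keratins Krt8 and Krt18 were almost absent from control Fst-led cells and present in the ablated ones. Krt8 was at 0.535 CPM in control cells and 303 in ablated cells at 1 day, and at 0.938 and 376 at 1 week, a log2 ratio of 9.15 (8.02 to 10.59) and 8.65 (7.29 to 10.53). The control values rest on 6 and 4 UMIs, against 1740 and 1027 in the ablated cells. Its partner Krt18 was at 1.60 and 24.7 CPM at 1 day and at 0.938 and 49.9 at 1 week. At 1 day 34.1% of ablated cells held a Krt8 UMI (31.3 to 37.0), beside 16.0% of shallow immune barcodes (13.0 to 19.3), whose median depth was 2049 UMIs against 4154. The immune barcodes had 166 CPM, beside the 303 CPM of the Fst-led cells. At 1 week 16.7% of the ablated cells held one (46 of 276), and 0 of 84 shallow immune barcodes did. The 1-week ratio of Krt8 was 2.42 with thinning before the rule. Cldn4, a tight junction protein, was at 36.0 and 221 CPM at 1 day, with 118 CPM in the immune barcodes, and at 235 and 427 at 1 week. Cldn7, another claudin, was at 0.704 and 21.6 CPM at 1 week, a log2 ratio of 4.94 (3.32 to 7.26) on 3 control UMIs. Epcam, an adhesion molecule that restrains claudin turnover, was at 995 and 1558 CPM at 1 day. Krt7, another simple epithelial keratin, went the other way at 1 week, from 18.5 to 3.30 CPM. In all, 3 of 6 measured members were past 2-fold higher at 1 day and 0 lower (median 1.63), and 3 of 7 higher and 1 lower at 1 week (median 0.86).

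Ablated cells that carried Krt8 and Krt18 stood apart from the other ablated cells in more than these keratins. At 1 week 34 of the 276 (12.3%) had 3 or more UMIs of the pair and 221 had none, and no control cell had 3 or more at either time. Trp63 was at 51.4 CPM in the 34 and 289 in the 221. Fst stood at 156 and 848 CPM and Sox9, the outer root sheath and bulge regulator, at 78.6 and 618. Krt15 was at 296 and 1968 CPM and Col17a1, a hemidesmosome collagen, at 95.8 and 409. The keratin 8 cells were lower in Trp63 and in these follicle and basal genes. Fst is a rule gene, and a deep barcode passes the rule at a lower level of it, so its value is a description. Krt6a stood at 2608 against 1122 CPM, Krt6b at 530 against 64.8, Krt16 at 1921 against 342 and Nppb at 915 against 87.5. A single cell held 345 of the 371 Krt6b UMIs of the 34, so that contrast rests on 1 cell. The keratin 8 cells were also deeper, with a median of 20647 UMIs against 6741. Among the 34 cells 24 held 2 or more G2/M UMIs, against 80 of the 221. Their median rule sum was 6.5 against 11, and 4 of the 34 had a high doublet score. At 1 day the split was milder: Trp63 was at 112 CPM in the 195 ablated cells with 3 or more UMIs and 256 in the 695 with none, Fst at 848 and 2005, and Sox9 at 448 and 889. At that time 127 of the 195 had a high doublet score (65.1%), against 120 of the 695 (17.3%). Krt6a went the other way there, at 508 against 607 CPM.

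**Figure D3:**
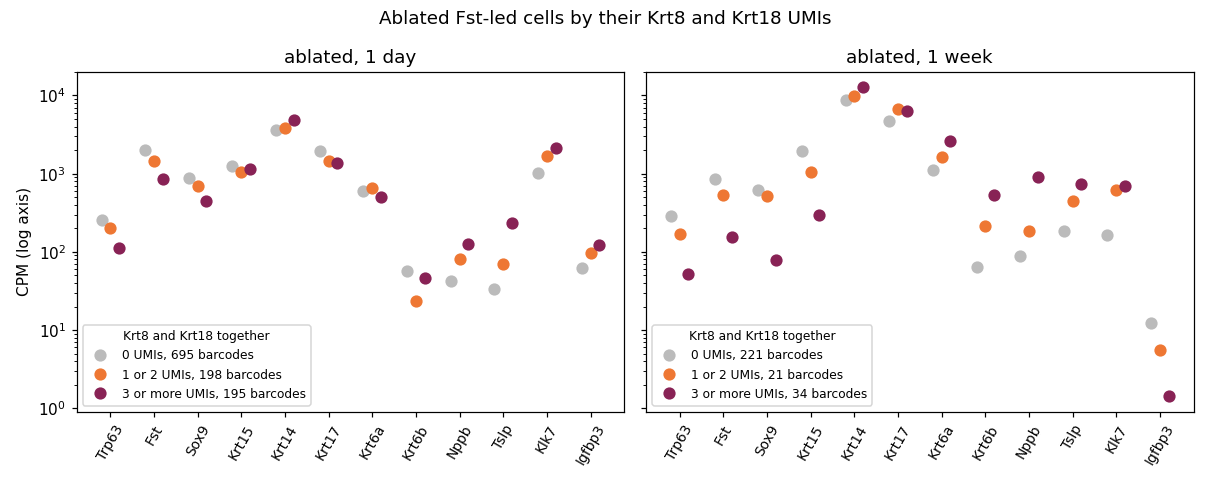
Level of 12 genes (CPM, log axis) in ablated Fst-led cells split by their Krt8 and Krt18 UMIs (0, 1 to 2, 3 or more), at 1 day and 1 week. At 1 week Trp63, Fst, Sox9 and Krt15 are lowest, and Krt6b, Krt6a and Nppb highest, in the 34 cells with 3 or more. A single cell held 345 of the 371 Krt6b UMIs of those 34.

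Genes of the basal state and of attachment to the basement membrane were mostly lower. Of 16 measured members of the list of p63 targets and basal adhesion, 15 had a ratio below 0 at 1 day and 13 at 1 week, with medians of -0.37 and -0.40, though 0 were past 2-fold lower at 1 day and 3 at 1 week. Krt15, the keratin of bulge and basal cells, was at 2147 and 1182 CPM at 1 day (log2 ratio -0.86, -0.90 to -0.82) and at 4469 and 1480 at 1 week (-1.59, -1.64 to -1.55). Col17a1 was at 812 and 416 CPM at 1 day (-0.96) and at 884 and 316 at 1 week (-1.48). Dst, the hemidesmosome linker dystonin, was at 635 and 366 CPM at 1 day and at 996 and 404 at 1 week (-1.30). These 3 genes were lower at both times. Lamb3, a chain of laminin 332, had ratios of -0.79 and -0.86, and Itgb4, its integrin receptor subunit, -0.60 and -0.50. Cd44, the hyaluronan receptor, was the 1 member above 0 at 1 day (0.15). The basal keratins did not follow at 1 week: Krt14 was at 5917 and 3994 CPM at 1 day (-0.57), but at 6960 and 9829 at 1 week (0.50), and Krt5 was at 2523 and 1562, then at 7083 and 7184. With thinning before the rule the 1-week ratio of Krt14 was 0.00. Without the G2/M cells Krt15 had -0.89, Col17a1 -0.94 and Dst -0.71 at 1 week, none past 2-fold.

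Stress keratins were mostly higher in the ablated libraries. Thinning before the rule made most of these differences smaller, but not that of Krt16 at 1 day. Krt6a, the keratin of injured epidermis and of the companion layer, was at 384 and 588 CPM at 1 day (0.62, 0.55 to 0.68) and at 152 and 1536 at 1 week (3.34, 3.22 to 3.46). Within the 3 hashtags of the 1-day libraries, tags whose meaning the labels do not give, the Krt6a ratio was 0.50, 1.92 and -0.18, so its 1-day direction was not common to them. Krt6b, its near copy, was at 1.52 and 48.3 CPM at 1 day and at 0.235 and 194 at 1 week. The 1-week ratio of Krt6b, 9.69 with a lower bound of 7.21, rests on 1 control UMI, and 5 cells held 85.3% of its 529 ablated UMIs. Reads of Krt6a and Krt6b can be hard to tell apart, so their split is uncertain. Krt16, their partner, was at 476 and 1236 CPM at 1 day (1.38) and at 286 and 785 at 1 week (1.46). Shallow immune barcodes of the ablated 1-day library had 647 CPM of Krt16. With thinning before the rule the Krt16 ratio was 1.45 at 1 day and 0.13 at 1 week. Krt17 was at 1481 and 1689 CPM at 1 day (0.19) and at 2372 and 5245 at 1 week (1.14). With thinning before the rule Krt6a had 0.10 at 1 day and 2.42 at 1 week, and Krt17 0.02 and 0.47. On the list of inner bulge and companion layer keratins and secreted factors, 2 of 9 measured members were past 2-fold higher at 1 day and 5 of 9 at 1 week, none lower, with medians of 0.17 and 1.07. Timp3, the inner bulge marker that set Fst-led cells apart, had ratios of -0.16 and -0.76. The 1-week median was 0.20 with thinning before the rule.

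Of 16 measured hair follicle stem cell regulators 0 were past 2-fold at either time, with medians of 0.07 and -0.21. Sox9 was at 551 and 734 CPM at 1 day (0.41, 0.36 to 0.47) and at 570 and 473 at 1 week (-0.27, -0.37 to -0.17). The 1-week direction turned with the cells counted: without G2/M cells it was 544 and 692 CPM (0.35, 0.22 to 0.47). With thinning before the rule the 1-week ratio of Sox9 was 0.16. At 1 day Sox9 had 0.81, -0.11 and 0.57 within hashtags 1 to 3. Lhx2 had ratios of 0.41 and 0.49, but was past 2-fold at 1 week without G2/M cells (1.67), as was Gas1, a growth arrest-specific surface protein (1.13). Nfatc1, a factor of quiescent bulge cells, had 0.02 and -0.07. Lrig1, a restrainer of EGF receptors in follicle stem cells, was at 27.3 and 24.2 CPM at 1 day and at 121 and 104 at 1 week.

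**Figure D4:**
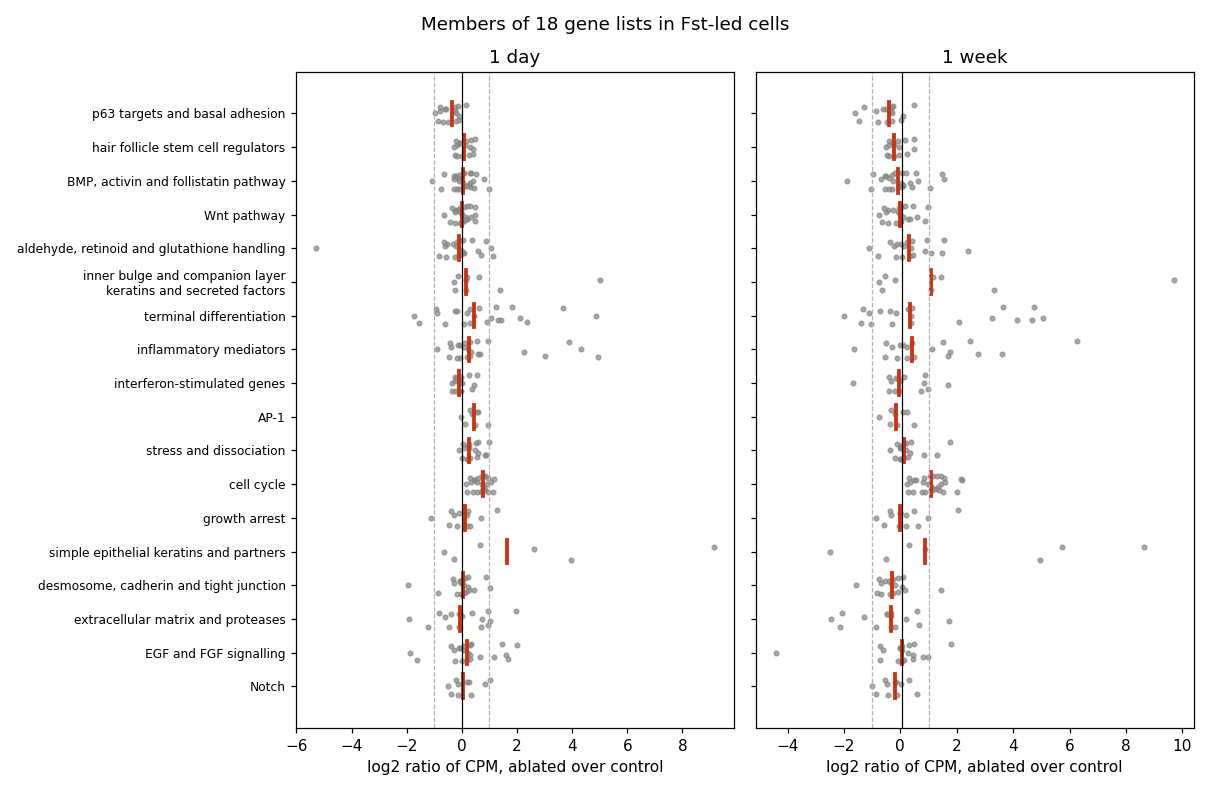
Log2 ratio of ablated over control for the measured members of 18 gene lists in Fst-led cells at 1 day and 1 week. Points are genes, bars list medians, the dashed lines a 2-fold difference and the black line the median over all measured genes. Cell cycle genes lie above 0 at both times, while p63 targets and basal adhesion genes lie mostly below.

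Signalling genes past 2-fold were few in number, though on some lists their share was above that over all genes. On the BMP, activin and follistatin list 1 of 27 members was past 2-fold at 1 day. At 1 week 3 of 26 were higher (11.5%) and 2 lower (7.69%), against 5.46% and 3.39% over all measured genes. Among ligands Bmp4 was at 10.8 and 2.93 CPM at 1 week (-1.88, -3.17 to -0.78), on 46 and 8 UMIs, and Bmp2 had ratios of -0.77 and -0.96. Inhba, the activin A subunit that follistatin binds, was at 29.1 and 13.8 CPM at 1 day and at 5.63 and 15.8 at 1 week. A single control cell held 133 of its 327 UMIs at 1 day. The direction of Inhba turned at 1 day without G2/M cells (0.20) and at 1 week with thinning before the rule (-1.41). Among receptors Bmpr1a had 0.17 and -0.18, and Bmpr2 0.04 and -0.50. Among targets Id1, a BMP-induced inhibitor of bHLH factors, was at 45.4 and 89.9 CPM at 1 day (0.99, 0.81 to 1.17) and at 86.1 and 249 at 1 week (1.53, 1.35 to 1.72), but 0.46 at 1 week with thinning before the rule. Id3 had 0.79 and 0.42. On the Wnt list 0 of 23 and 0 of 22 members were past 2-fold, with medians of 0.02 and -0.01. Ctnnb1, which encodes β-catenin, was at 219 and 211 CPM at 1 day and at 279 and 263 at 1 week. Axin2, a common readout of that pathway, had 0.32 and -0.65. On the Notch list 1 of 10 was past 2-fold higher at 1 day and 1 of 11 lower at 1 week. Notch1 had -0.13 and -0.87, the receptor Notch2 1.02 and 0.31, and Notch2 was not past 2-fold at 1 day with thinning before the rule (0.80) or without G2/M cells (0.93).

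Several ligands of the EGF family were higher at 1 day, and 1 was lower. Ereg, the ligand epiregulin, was at 16.0 and 64.6 CPM (2.01, 1.75 to 2.28), and Areg, amphiregulin, at 44.0 and 139 (1.66). Hbegf, heparin-binding EGF, was at 243 and 542 CPM (1.16) and Epgn, epigen, at 78.5 and 218 (1.47). Areg had -0.08 within hashtag 3, and its level cannot be read alone, since shallow immune barcodes had 1491 CPM in the control library and 276 in the ablated one. Fgf1, a fibroblast growth factor, was at 3.74 and 11.5 CPM (1.62), and Btc, the EGF family ligand betacellulin, went the other way, at 9.63 and 3.14 (-1.62). At 1 week Areg had a ratio of 1.00, Epgn 0.81, Hbegf 0.45 and Ereg 0.28. In the list of EGF and FGF signalling 5 of 22 members were past 2-fold higher and 2 lower at 1 day, while 1 of 19 passed in each direction at 1 week. The receptor Egfr was at 102 and 83.4 CPM at 1 day and at 225 and 147 at 1 week. Igfbp3 was the member furthest below 0 at both times. It was at 312 and 85.4 CPM at 1 day (-1.87, -2.01 to -1.73) and at 196 and 9.16 at 1 week (-4.42, -5.06 to -3.85). An Igfbp3 UMI was found in 36.6% of control and 17.4% of ablated cells at 1 day, and in 94 of 626 and 8 of 276 at 1 week. The 1-week ratio was -4.33 with thinning before the rule. Shallow immune barcodes had 93.7 and 58.8 CPM at 1 day, 13.3 in the control at 1 week and none in the ablated library.

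Cell cycle genes were higher in the ablated Fst-led cells at both times, and they were already frequent in the controls. All 28 measured members were above 0 at 1 day, with a median of 0.75 and 3 past 2-fold, and all 29 at 1 week, with a median of 1.07 and 17 past 2-fold. Mki67, the proliferation antigen Ki-67, was at 66.0 and 117 CPM at 1 day (0.83, 0.68 to 0.98) and at 162 and 295 at 1 week (0.86, 0.72 to 1.01). Ube2c, a mitotic ubiquitin-conjugating enzyme, was at 44.4 and 78.4 CPM at 1 day (0.82) and at 98.3 and 286 at 1 week (1.54). Plk1, a mitotic kinase, was at 6.10 and 27.1 CPM at 1 week (2.15), and Ccnb2, a B-type cyclin, at 18.8 and 75.2 (2.00, but 0.55 with thinning before the rule). Rrm2, a ribonucleotide reductase subunit, was at 26.5 and 120 CPM at 1 week (2.18). Cells with 2 or more UMIs of 15 G2/M transcripts, counted once every cell had been thinned (1500 UMIs at 1 day, 2000 at 1 week), were 8.37% of control cells (7.12 to 9.75) and 17.4% of ablated cells (15.2 to 19.8) at 1 day. At 1 week they were 11.3% (8.97 to 14.1) and 29.0% (23.7 to 34.7). Without thinning, 15.4% of control and 27.5% of ablated cells qualified at 1 day, and 19.2% and 40.9% at 1 week. After thinning, bulge-gated cells had 1.46%, 2.95%, 1.15% and 3.45% in the same order of libraries. Upper follicle-gated cells had 1.26%, 2.46% and 7.85%, with 331 of 1322 cells in the ablated 1-week library (22.7% to 27.5%). The higher 1-week share was thus not limited to Fst-led cells. Without thinning, 8390 of 10092 passing control barcodes and 4372 of 6255 ablated ones had fewer than 2 such UMIs at 1 week. At 1 day these numbers were 24897 of 27727 and 27463 of 30687. Thinning before the rule left a list median of 0.31 at 1 day and 0.48 at 1 week.

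**Figure D5:**
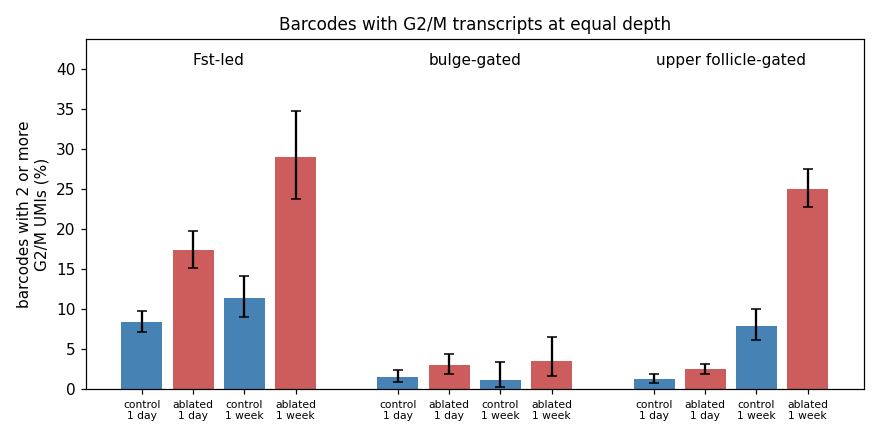
Share of cells with 2 or more UMIs of 15 G2/M transcripts after thinning to a fixed depth (percent, with exact Clopper-Pearson 95% intervals) in Fst-led, bulge-gated and upper follicle-gated cells of the 4 libraries. The share is higher in the ablated library for Fst-led cells at 1 day (17.4% against 8.37%) and 1 week (29.0% against 11.3%). For upper follicle-gated cells it is also higher at 1 week (331 of 1322 cells against 62 of 790).

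The G2/M cells of the ablated 1-week library differed from its other Fst-led cells. The 113 with 2 or more such UMIs had 140 CPM of Trp63 and the 163 with fewer 340. Krt15 was at 841 and 2439 and Tslp, an epithelial cytokine, at 565 and 11.9. Of the 938 Tslp UMIs 5 cells held 70.5%, and the 163 cells held 13. The median depth of the 113 cells was 11318 UMIs against 5880. In the control library of that time Trp63 was at 462 CPM in the 120 G2/M cells and 541 in the 506 others, a smaller gap. The 1-day libraries did not share this, with Trp63 at 199 CPM in ablated G2/M cells and 212 in the others, against 473 and 543 in the control, and Tslp at 56.6 and 115 in the ablated cells. The differences between these gaps were not tested. Among 13 growth arrest genes 1 was past 2-fold higher at each time, and 1 lower at 1 day. The higher one was Pmaip1, a p53-induced BH3-only gene, at 18.7 and 45.5 CPM (1.28) and at 19.5 and 79.5 (2.03), though with thinning before the rule its ratios of 0.69 and 0.76 were not past 2-fold. Cdkn1a, the p21 inhibitor, was at 479 and 781 CPM at 1 day and at 672 and 530 at 1 week, while shallow immune barcodes had 737 to 996 CPM. Cdkn2b, the p15 inhibitor, was at 5.62 and 2.61 CPM at 1 day (-1.10, -2.02 to -0.27), with -0.65 without G2/M cells. Sfn, which encodes 14-3-3σ, had -0.48 and -0.59.

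Terminal differentiation genes split in both directions, though at 1 day the members past 2-fold lower rested on few cells. At 1 day 9 of 23 measured members were past 2-fold higher and 2 lower (median 0.43), and at 1 week 7 higher and 5 lower of 20 (median 0.33). Klk7, a protease of the cornified layer, was at 113 and 1437 CPM at 1 day (3.66, 3.58 to 3.75) and at 34.7 and 329 at 1 week (3.24, 2.99 to 3.50). It was found in 67.5% of ablated cells at 1 day, beside 45.8% of shallow immune barcodes at 690 CPM. Sprr2d and Sprr2h, small proline-rich proteins of the cornified envelope, were also higher: Sprr2d was at 2.23 and 64.6 CPM at 1 day and 1.17 and 39.6 at 1 week, Sprr2h at 23.0 and 119 and then 8.68 and 36.3. Flg, the granular layer protein filaggrin, was at 21.2 and 92.0 CPM at 1 day (2.12), but at 46.7 and 50.6 within hashtag 1, 15.6 and 177 within hashtag 2 and 3.99 and 4.84 within hashtag 3. Of these 3 hashtags only hashtag 2 held a difference past 2-fold. The cells with no tag assigned, 674 control and 641 ablated, had Flg at 21.7 and 116 CPM. Sprr1a was at 1066 and 3805 (1.84), beside 1899 CPM in the immune barcodes. The suprabasal keratins were lower at 1 week. Krt10 was at 3496 and 3098 CPM at 1 day (-0.17) and at 1390 and 352 at 1 week (-1.98), and Krt1 had -0.62 and -1.12. At 1 week 5 cells held 72.6% of the 961 ablated Krt10 UMIs, and its ratio was -3.19 without the 5 richest cells and -1.07 without G2/M cells. At 1 day Krt10 was at 2039 and 4768 CPM within hashtag 2, against the direction of the whole. Lor, the envelope protein loricrin, was at 302 and 372 CPM at 1 day and at 16.7 and 209 at 1 week (3.65). Ivl, involucrin, had -0.95 and -1.40. Late envelope genes rested on few cells. The 2 list members past 2-fold lower at 1 day were Lce1a1 and Lce1b. A single control cell held 172 of 230 and 203 of 242 of their control UMIs. Without the 5 cells richest in each, their ratios were 0.13 and 0.82. Of the 2432 control UMIs of Lce1m at 1 day a single cell held 1489, and its ratio of -2.54 became 0.80 without the 5 cells richest in it.

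Some inflammatory mediators were higher, more of them at 1 week. Of 24 measured members 5 were past 2-fold higher and 0 lower at 1 day (median 0.25), while at 1 week 8 of 19 were higher and 1 was lower (median 0.42). The alarmins S100a8 and S100a9 were at 0.802 CPM each in the control and at 24.7 and 16.2 in the ablated library at 1 day, in 30 and 13 cells. Of these ablated UMIs a single cell held 62 of 142 for S100a8 and 56 of 93 for S100a9. Slpi, a protease inhibitor of wounded epithelia, was at 8.56 and 126 CPM at 1 day (3.88, 3.57 to 4.20), in 14.2% of ablated cells and in 5.94% of shallow immune barcodes. At 1 week Lcn2, lipocalin 2, was at 5.87 and 70.7 CPM (3.59, 2.99 to 4.26), in 22.5% of ablated cells and 0 of 84 immune barcodes. The Lcn2 ratio was 4.65 with thinning before the rule and 2.88 without G2/M cells. Cxcl2, a neutrophil chemokine, was at 2.35 and 15.8 CPM at 1 week (2.75, 1.73 to 3.91), but the immune barcodes had 335 CPM. Its 10 control UMIs came from 2 cells, 5 cells held 81.4% of the 43 ablated ones, and the ratio was 0.55 without G2/M cells. Ptgs2, the inducible cyclooxygenase, was at 36.8 and 106 CPM (1.52). Cxcl10, a T cell chemokine, was at 23.5 and 130 CPM at 1 week (2.48). Tslp was at 11.8 and 94.8 CPM at 1 day (3.01, 2.73 to 3.30) and at 4.46 and 344 at 1 week (6.27, 5.62 to 7.01). The 1-week level of Tslp came from 41 cells, 5 of which held 70.5% of its 938 UMIs. Its ratio was 0.20 with thinning before the rule and 1.25 (0.07 to 2.40) without G2/M cells. Ccl20, a chemokine of epithelial cells, went the other way at 1 week, at 80.9 and 26.0 CPM, but 18 control cells carried all of it. Interferon-stimulated genes had medians of -0.09 and -0.06, with 0 of 16 past 2-fold at 1 day and 1 each way of 15 at 1 week. Those were Isg15, at 12.7 and 40.7 CPM (1.68, but 0.70 with thinning before the rule and -0.49 without G2/M cells), and Ifi27l2a, at 34.0 and 10.6 (-1.68).

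Junction genes gave single differences past 2-fold, and matrix and metabolic genes gave more of them. Of 20 and 18 measured desmosome, cadherin and tight junction members 1 was past 2-fold in each direction at each time, and the medians were 0.06 and -0.30. Cdh3, P-cadherin, had -0.86 and -0.37, and Dsg1a, a suprabasal desmoglein, was at 278 and 296 CPM at 1 day and 178 and 60.5 at 1 week. Cdh4, R-cadherin, was at 8.02 and 2.09 CPM at 1 day (-1.94), and Dsc1, a suprabasal desmocollin, at 17.8 and 48.8 at 1 week (1.45, but -0.17 without G2/M cells). Among extracellular matrix genes the type IV collagens of the basement membrane were lower at 1 week: Col4a1 was at 27.2 and 6.23 CPM (-2.13, -2.95 to -1.39) and Col4a2 at 18.3 and 3.30. With thinning before the rule these ratios were -1.17 and -1.23. Col7a1, the anchoring fibril collagen, had -1.23 and -1.30, and -0.79 at 1 day with thinning before the rule. Fn1, fibronectin, was at 35.4 and 8.43 CPM at 1 week, but -0.64 with thinning before the rule. Plau, the urokinase protease, was at 3.03 and 11.8 CPM at 1 day (1.97), and Mmp13, a collagenase, at 10.5 and 2.79 (-1.92). A single control cell held 67 of the 118 control UMIs of Mmp13, and 5 cells held all 16 ablated ones. In all, 2 of 16 matrix genes were past 2-fold in each direction at 1 day, and 1 of 15 higher and 4 lower at 1 week. Among aldehyde, retinoid and glutathione genes Crabp2, which carries retinoic acid, had 1.05 and 1.56, but 0.19 at 1 day with thinning before the rule. Gsta4, a glutathione transferase, was at 6.77 and 0.174 CPM at 1 day (-5.28, -10.60 to -2.76), on 76 and 1 UMIs. Its value of 0.30 without Fst in the rule rests on at most 1 ablated UMI and shows no turn in direction. That list had 2 higher and 1 lower of 24 past 2-fold at 1 day and 4 higher and 1 lower of 20 at 1 week.

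Genes of the early response to dissociation were compared because the labels give 2 digestions. Of 8 AP-1 genes 0 were past 2-fold at either time, with medians of 0.43 and -0.14. At 1 day 7 of the 8 were above 0, and at 1 week 3. Over all measured genes 5220 of 9768 were above 0 at 1 day and 4869 of 8884 at 1 week. Fos was at 277 and 538 CPM at 1 day (0.96) and at 1461 and 2022 at 1 week (0.47), and Jun at 941 and 911 and then 1662 and 1547. Stress and dissociation genes had medians of 0.27 and 0.11, with 0 and 2 of 19 past 2-fold higher. Of these 19 genes 18 were above 0 at 1 day and 15 at 1 week. Ddit4, a stress-induced inhibitor of mTOR, was at 38.2 and 128 CPM at 1 week. The part of digestion in any difference was not tested.

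Other genes at the ends of the ranking were often shared with the rest of the library. Slurp1, a secreted protein of late keratinocytes, was at 5.26 and 162 CPM at 1 day, and 67.7 CPM in shallow immune barcodes. Nppb was at 3.48 and 72.3 CPM at 1 day (4.38, 3.90 to 4.89) and at 4.46 and 306 at 1 week (6.10, 5.45 to 6.84). With thinning before the rule the Nppb ratios were 1.96 and 4.37. At 1 week 1 cell held 18 of its 19 control UMIs and 5 cells held 67.4% of the 835 ablated ones. It was found in 8.09% and 15.9% of the ablated cells, and in 0 of 84 immune barcodes at 1 week. Ly6c1 was at 9.18 and 136 CPM at 1 day. At 1 week Cstdc5, a cystatin family member, was at 2.82 and 489 CPM, Sprr2a3 at 7.04 and 537, and Il24, a cytokine of the IL-10 family, at 0.704 and 48.8 (6.11, 4.54 to 8.41, on 3 control UMIs). The log2 ratios of these 3 genes were 4.56, 4.37 and 4.46 with thinning before the rule. Without G2/M cells they were 5.27, 5.57 and 2.55. For Il24 5 cells held 51.1% of the 133 ablated UMIs. Bex1 was at 0.235 and 37.8 CPM (7.33, 4.82 to 12.65), on 1 control UMI and in 14 ablated cells. On the low side at 1 day were Serpinb12 at 22.5 and 3.48 CPM, Mt4, a metallothionein of stratified epithelia, at 113 and 24.0, Clca2, a regulator of calcium-activated chloride channels, at 37.8 and 10.6, and Dapl1 at 321 and 106. Hpgds, at 41.7 and 8.36 CPM, was above 400 CPM in shallow immune barcodes of both 1-day libraries, at 429 and 447. At 1 week Ifi202b was at 369 and 65.2 CPM (-2.50), Hlf, a PAR bZIP factor, at 23.9 and 2.57 and Skint5 at 22.8 and 1.10. Dnase1l3, Krt77 and Skint10 had ratios of -3.10, -2.03 and -3.89 that became 0.10, 0.01 and -0.12 when barcodes were thinned before the rule.

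The direction of most of the main differences was common to the gated populations, with differing sizes that 1 library per group does not allow to be tested. Krt8 had ratios of 7.40 and 5.93 in bulge-gated and of 8.53 and 8.28 in upper follicle-gated cells at the 2 times. Igfbp3 had -1.15 and -3.16 in bulge-gated and -1.29 and -4.58 in upper follicle-gated cells. Krt15 had -0.82 and -0.42, and -1.03 and -1.63. Col17a1 at 1 week was -0.62 in bulge-gated, -1.48 in Fst-led and -2.45 in upper follicle-gated cells. Sox9 at 1 week differed in sign, at 0.62 in bulge-gated and 0.37 in upper follicle-gated cells and -0.27 in Fst-led cells. Tslp at 1 week was 0.89 in bulge-gated, 3.27 in upper follicle-gated and 6.27 in Fst-led cells. Id1 was 0.25 and 0.73 at 1 week in the other gated populations and 1.53 here. Col4a1 at 1 week was 0.43 and -0.06 there, against -2.13 here. With thinning before the rule the Fst-led values at 1 week were 0.16 for Sox9, 0.20 for Tslp, 0.46 for Id1 and -1.17 for Col4a1. Sox9 then had the sign of the other gated populations, and Tslp and Id1 were no longer above both. Thinning also lowers the counts of the bulge genes and Krt79. Barcodes that the rule removes at full counts can thus enter the thinned set. The part of depth in these shifts was not tested. Those other populations were not thinned.

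Genes with the highest level in Fst-led control cells against other control barcodes were partly kept after ablation. Since the cells were chosen by their own counts, these genes are a description. At 1 day Ccl7, a chemokine, was at 69.8 CPM in control Fst-led cells and 14.2 in other barcodes, and at 34.0 and 11.8 in the ablated library. Ccl2, a monocyte chemokine, was at 177 and 48.5 CPM, then 135 and 42.2. Cxcl12, which attracts cells that carry CXCR4, was at 192 and 56.9 CPM, then 145 and 38.6 after ablation. At 1 week control bulge-gated cells had more Cxcl12 than control Fst-led cells, 155 against 126 CPM. At 1 day they had less, 99.7 CPM. Ntrk2, the neurotrophin receptor TrkB, was at 43.0 and 11.4 CPM, and Vsnl1, a neuronal calcium sensor, at 28.2 and 6.01. Rassf9 was at 161 and 45.8 CPM at 1 day and at 90.8 and 20.5 at 1 week. Cacna2d2, Slco2b1, Dnm3 and Zmynd15 completed the 10 at 1 day. All 10 stood higher in Fst-led than in other barcodes of the ablated 1-day library too. At 1 week Ccl20, Akr1c18, Vsnl1, Slco2b1, Igf2bp2, Ccl1, Rassf9, Hist1h1b, Gpr161 and Zmynd15 led. In the ablated 1-week library Vsnl1 was at 37.8 CPM in Fst-led cells and 14.8 in others, and Rassf9 at 56.5 and 32.0. Akr1c18 turned, from 119 and 24.1 CPM in the control to 91.6 and 377 in the ablated library. Upper follicle-gated cells had 89.2 and 921 CPM of it in these libraries. In control Fst-led cells 5 cells held 51.2% of its 508 UMIs.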

How the data were processed

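Single-cell RNA sequencing was compared in 4 libraries of mouse epidermis, 1 per group. The deposited values are UMI counts per gene and barcode, raw and not normalized per the file values, with hashtag counts beside the genes at 1 day. Per the submitters' processing notes Cell Ranger 5.0.1, Seurat and the build mm10 were used. The counts were made by the authors before deposit, and how the listed barcodes were chosen is not given in the sources used here. No column belonged to another series.

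UMIs were summed over the cells of a population and library and divided by the summed gene UMIs (CPM). Levels carry exact Poisson intervals, log2 ratios exact conditional binomial intervals and shares exact Clopper-Pearson intervals, all at 95% and all for counting error only. Genes needed 50 UMIs over both libraries of a time point. In a log2 ratio a count of 0 was set to 3 UMIs, so such a ratio is only a bound. With 1 library per group no test, p-value or SE was computed, and past 2-fold is a rule of size. The members of the population, the gene lists and the comparisons were chosen with earlier results of these data known. Named genes are Trp63 and the rule genes. For each time point they also include the 8 highest and 8 lowest ratios, ranked by the interval bound nearest 0 among genes of 100 UMIs or more, without rule, mitochondrial, ribosomal, Gm and Rik genes. For each list they include the most abundant member and the 3 furthest from 0. The 10 genes most enriched in control Fst-led cells over other barcodes complete the rule, and genes named outside it were chosen as roles within a list after their values were seen. Results for 2 genes that the rule names are not reported here. The inner bulge, bulge, upper follicle and basal markers were read as single genes. Merkel and other marker lists were read as sums in Fst-led cells, with other passing barcodes beside the spinous and granular list.

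Doublets were scored with Scrublet in scanpy 1.11.5, but its automatic threshold marked 19.3% of barcodes in 1 library and at most 0.040% in the others, so no barcode was removed in the main values. The shallow immune barcodes used as background were defined after seeing the data, as were the values without shared barcodes, without G2/M cells and without the 5 richest barcodes of each gene. Python tools were numpy 2.4.6, scipy 1.17.1, pandas 2.3.3 and matplotlib 3.10.9, and TMM factors came from edgeR 4.0.16 in R 4.3.3. Ratios and intervals were checked on simulated data. Gene coordinates came from the GENCODE M21 annotation of GRCm38, which held 32235 of 32285 gene identifiers (99.8%), and promoter sequences from RefSeq.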

Additional observations from a re-analysis of the deposited data

Results flagged for a closer look

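For 11 named genes the log2 ratio of ablated over control in Fst-led cells had opposite signs at 1 day and 1 week, with both intervals clear of 0 and a ratio past 2-fold at 1 time or both, which is why they are listed. Others, such as Krt14 and Sox9, turned with smaller ratios. The difference between the time points was not tested, and the library kits differ between them as well. Dsg1a, a suprabasal desmoglein, had 0.09 at 1 day and -1.56 at 1 week. Krt77, a keratin of sweat ducts and suprabasal cells, had 0.41 and -2.03. Skint10 had 0.87 and -3.89, on UMIs in 35 control cells and 5 ablated cells at 1 week. Ifi27l2a, an interferon-induced gene, had 0.54 and -1.68. Akr1c18, an aldo-keto reductase, had 2.27 (1.97 to 2.58) and -0.38 (-0.60 to -0.16), in 91 ablated cells at 1 day and 56 at 1 week. Each of these 5 genes was higher at 1 day and lower at 1 week.

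The other 6 genes went the opposite way. Fabp5, a fatty acid-binding protein of keratinocytes, had -0.54 at 1 day and 1.48 at 1 week. Inhba had -1.08 and 1.49, and a single control cell held 133 of its 327 UMIs at 1 day. Lce1a1 had -1.75 and 4.67, Lce1a2 -2.07 and 2.81, Lce1b -1.56 and 4.75 and Lce1m -2.54 and 1.82. These 4 late cornified envelope genes rested on 1 control cell at 1 day, which held 172 of 230, 355 of 403, 203 of 242 and 1489 of 2432 UMIs in that order. At 1 week their ablated UMIs came from 10, 5, 10 and 17 cells.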

How the results depend on the processing

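Depth limits these comparisons, since the rule counts UMIs and the ablated cells were shallower at 1 day and deeper at 1 week, and a single library per group leaves the spread between animals unknown. No paired analysis was possible because each group is 1 library. Of the single-gene values under all alternatives 2332 moved by less than their counting interval, 989 moved further and 27 that were past 2-fold turned in sign, and of the list medians 701 moved little and 109 further.

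The difference in share at 1 day (main value -2.88 points) was -2.15 without Moxd1 in the rule, -0.77 without Fst, -2.51 without Sostdc1 and -2.19 without Aldh3a1. It was -1.31 with barcodes thinned before the rule, -2.49 without high Scrublet scores, -3.51 with Krt8 and Krt18 below 3 UMIs, and -1.24, -3.26 and -3.24 within hashtags 1 to 3. At 1 week (main value -1.79) it was -0.99 without Fst in the rule, -0.57 with thinning, -0.77 among barcodes of 3000 UMIs or more and -1.11 without high Scrublet scores. The share difference kept its sign in each of these.

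The Trp63 log2 ratio at 1 day was -1.22 as a mean over barcodes, -1.49 without Fst in the rule, -1.07 with thinning, -1.21 without high Scrublet scores, -1.12 with Krt8 and Krt18 below 3 UMIs, and -1.49 and -0.98 within hashtags 2 and 3. For Trp63 at 1 week it was -0.89 as a mean over barcodes, -1.38 without the 5 richest barcodes, -1.38 with a rule sum of 3 or more, -0.98 without Moxd1 and -1.10 without Aldh3a1 in the rule. It was -0.63 with thinning, -0.91 with Krt8 and Krt18 below 3 UMIs and -0.67 without G2/M cells. The causes were not tested.

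Genes past 2-fold higher at 1 day (273) numbered 447 with a minimum of 20 UMIs, 129 with 200, 120 without Fst in the rule, 104 with thinning and 111 within hashtag 3. Those lower at 1 day (115) numbered 232, 41, 215 without the 5 richest barcodes of each gene, 70 with thinning and 70 without high Scrublet scores. At 1 week those higher (485) numbered 741 and 189 at these minimums, 312 without Moxd1, 317 without Aldh3a1, 259 with thinning, 290 with Krt8 and Krt18 below 3 UMIs and 168 without G2/M cells. Those lower (301) numbered 545 and 93, 513 without the 5 richest barcodes, 155 with thinning and 162 without G2/M cells. Thinning and higher minimums leave fewer UMIs or genes to compare.

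Of 1551 single-gene values whose ratio was not past 2-fold 65 turned in sign as well, Krt6a, Sox9 and Krt10 within hashtags among them. Past 2-fold, Lce1m at 1 day had 0.80 without its 5 richest barcodes, 1.41 without Fst in the rule, 0.040 with thinning, and 0.54 and 0.42 within hashtags 2 and 3. Lce1a2 at 1 day had 0.36 without its 5 richest barcodes, 1.07 with a rule sum of 6 or more, 0.97 without Moxd1, 0.14 without Fst, 0.40 with thinning, 0.50 without high Scrublet scores and 2.05 within hashtag 2. Gsta4 had 0.30 without Fst and 0.076 within hashtag 2, and Cdkn2b 0.52 and 0.23. Ablated cells of hashtag 2 held no Gsta4 UMI, and those found without Fst at most 1. A count of 0 was set to 3 UMIs in a ratio, so these Gsta4 values show no turn in direction. Inhba at 1 day had 0.88 within hashtag 2 and 0.20 without G2/M cells, and -1.41 at 1 week with thinning. Within hashtag 2 Dsc2 had -0.19, and within hashtag 3 Areg had -0.076. Ccna2 at 1 day had -0.80 without G2/M cells, which removes the cells that express it. At 1 week Dnase1l3 had 0.10 and Krt77 0.014 with thinning. Without G2/M cells Isg15 had -0.49, Dsc1 -0.17 and Maml2 0.0026 at 1 week. The causes were not tested.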

Other observations

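Hashtag counts were present in the 1-day libraries, with 3 tags used, and the labels do not say what the tags stand for. Within tags 1 to 3 Trp63 in Fst-led cells was at 518, 621 and 510 CPM in the control library and at 207, 220 and 259 in the ablated one. Fst-led cells were 6.22%, 6.05% and 7.57% of the passing barcodes of each tag in the control and 4.97%, 2.79% and 4.33% in the ablated library. No tag was assigned to 39.4% and 64.0% of passing barcodes.

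Ablated Fst-led cells at 1 week were also described by their own Trp63 UMIs. Krt6a was at 2558 CPM in the 94 cells with none, 1315 in the 93 with 1 or 2 and 783 in the 89 with 3 or more. Krt15 was at 952, 1292 and 2174 CPM and Col17a1 at 194, 259 and 492 in the same order. The median depth of these cells was 5934.5, 6773 and 7953 UMIs in that order, and its part in these levels was not tested.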
